A study of Mus musculus with 15 samples.

Results

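The differentiation of bone-forming osteoblasts and dentin-forming odontoblasts was followed through 7 genes, Runx1, Runx2, Sp7, Alpl, Spp1, Dmp1 and Tnfrsf11b, in mouse dental mesenchymal cells (mDMCs) during culture. These genes were chosen by name, and each had 1 transcript in the expression table, which covers 11960 named genes. RNA-seq was performed on 15 libraries from ICR mouse embryos at day 14.5, and the labels name no genetic alteration in any group. The mDMCs came from the mesenchyme of mandibular first molars, freed of epithelium with dispase and made single with trypsin. Freshly isolated mDMCs (0 h) gave 3 libraries, mDMCs cultured in DMEM with fetal bovine serum gave 2 libraries at 12 h and 3 each at 24, 36 and 48 h, and intact dental mesenchyme gave 1 library. All mDMCs went through the same dissociation, and every cultured group met the plate and the serum together, so that these cannot be told apart. The study states in general that independent experiments were analysed and that libraries were sequenced in duplicate or triplicate, but not which libraries came from separate isolations, so the p-values may measure only technical spread between them.

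Commitment of a mesenchymal cell to the osteoblast or odontoblast lineage is governed by Runx2, a DNA-binding factor of the Runt family, and by the zinc finger factor Sp7 (osterix), which acts downstream of Runx2. Runx1 is a relative of Runx2 that binds the same DNA core and is best known from blood cell formation. The committed cell makes Alpl, the tissue-nonspecific alkaline phosphatase, which splits pyrophosphate and thereby permits mineral to form, and acidic phosphoproteins of bone and dentin such as Spp1 (osteopontin) and Dmp1 (dentin matrix protein), which are secreted into the matrix. Tnfrsf11b (osteoprotegerin) is a secreted decoy receptor that binds the ligand Tnfsf11 (RANKL) and so keeps it from the receptor Tnfrsf11a (RANK) on osteoclast precursors.

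The rows stood for the transcripts ENSMUST00000023673 of Runx1 (chr16:92601466-92826149, minus strand, 8 exons), ENSMUST00000162816 of Runx2 (chr17:44495987-44736176, minus, 6 exons), ENSMUST00000078508 of Sp7 (chr15:102356606-102366513, minus, 2 exons), ENSMUST00000030551 of Alpl (chr4:137741733-137796384, minus, 12 exons), ENSMUST00000086833 of Spp1 (chr5:104435118-104441048, plus, 8 exons), ENSMUST00000066708 of Dmp1 (chr5:104202613-104214102, plus, 6 exons) and ENSMUST00000079772 of Tnfrsf11b (chr15:54250619-54278484, minus, 5 exons), all in GRCm38. The Runx2 transcript is annotated as a target of nonsense-mediated decay and is 1 of 13 annotated for the gene, whereas the others are protein coding. Whether a score counts that transcript alone or the whole gene is not stated. Dmp1 and Spp1 lie in the same cluster of matrix genes, with 221015 bases between the end of the former and the start of the latter that hold the protein-coding genes Ibsp and Mepe (RefSeq, GRCm38.p6).

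Because Runx2 and Runx1 are members themselves and bind a known core, the promoters of the members were searched for it. The RUNX core TGTGGT, on the opposite strand ACCACA, was looked for in the 250 bases upstream of each start site in RefSeq (GRCm38.p6), where 5 of the 7 genes had 9 windows in all. It was found in 3 windows, 1 each of the matrix genes Dmp1 (chr5:104202367-104202616, plus strand) and Spp1 (chr5:104434861-104435110, plus strand) and of Runx2 (chr17:44814628-44814877, minus strand), which are shown 5′ to 3′ with the core in capitals.
Dmp1: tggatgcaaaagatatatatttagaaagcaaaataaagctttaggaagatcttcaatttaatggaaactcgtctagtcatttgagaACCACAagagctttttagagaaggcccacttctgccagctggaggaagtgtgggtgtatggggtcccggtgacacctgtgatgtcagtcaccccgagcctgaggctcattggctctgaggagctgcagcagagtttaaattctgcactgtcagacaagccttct
Spp1: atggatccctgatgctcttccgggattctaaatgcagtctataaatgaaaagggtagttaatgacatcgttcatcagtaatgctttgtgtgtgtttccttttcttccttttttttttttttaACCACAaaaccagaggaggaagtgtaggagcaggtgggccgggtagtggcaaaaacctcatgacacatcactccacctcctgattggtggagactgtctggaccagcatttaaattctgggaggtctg
Runx2: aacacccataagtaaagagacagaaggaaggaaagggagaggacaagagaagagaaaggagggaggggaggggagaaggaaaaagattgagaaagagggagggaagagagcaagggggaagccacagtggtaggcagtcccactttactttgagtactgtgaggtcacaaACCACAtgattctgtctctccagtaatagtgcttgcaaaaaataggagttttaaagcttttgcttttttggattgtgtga
In all 3 the core read ACCACA, from base -164 to -159 before the start of Dmp1, from -128 to -123 before that of Spp1 and from -80 to -75 before that of Runx2. The last 4 bases of the Dmp1 window lie inside the transcript of the table, and the Runx2 start lies 78451 bases upstream of the Runx2 transcript of the table. The windows of Alpl and Runx1 held no match. Among all 32851 mouse promoters of this length 14.05% held the RUNX core on either strand, and 6.75% held the AP-1 motif TGANTCA, which was in none of the 9. A match is a string of letters and not a shown binding site.

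The values are normalized scores, whole numbers that the authors had brought to nearly the same distribution in each library, with a median of 721 and library totals from 21357605 to 21365980. The reads behind a score are unknown, so only the replicates show its error, and scores of different genes are not compared as levels because they are not per length. Changes are given as the log2 change of (score + 1), which understates the change of low scores, with its standard error from a limma fit of the 14 mDMC libraries, and a gene was called higher or lower at a Benjamini-Hochberg adjusted p below 0.05 over all 12079 transcripts tested. The middle transcript changed by at most 0.03 in any comparison with 0 h. Some libraries stood apart. At 0 h, replicate 1 had the highest sum of dental epithelium markers, 12742 against a lowest of 1393 in its group. The deviations of 0 h replicate 3 and 12 h replicate 1 from their groups resembled each other, with r = 0.475 across transcripts. Replicates 1 and 2 at 36 h were the closest pair of all, with r = 0.991 and 588 equal scores, but were not identical.

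Culture split the 7 genes into opposed directions. Tnfrsf11b and Spp1 were upregulated at every time point against freshly isolated mDMCs, Alpl was downregulated at every time point, and Runx2 and Sp7 were downregulated later. Dmp1 was upregulated at 12 h and 24 h and not called at 36 h and 48 h, and Runx1 was called at no time. Against 0 h, 3 genes were called higher and 1 lower in the 12 h group, where 29.9% of all transcripts were called higher and 28.3% lower. At 24 h there were 3 higher and 2 lower (35.0% and 31.8% of all transcripts). At 36 h, 2 were higher and 3 lower (36.0% and 34.0%), and at 48 h again 2 and 3 (37.1% and 34.0%). Since most transcripts of the table were called between 0 h and 48 h, these counts are no result about the 7 genes as a group, and the directions and sizes describe each gene by itself. The comparisons share the same 0 h libraries. In bulk RNA fewer cells of a type and less RNA per cell cannot be told apart.

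**Figure D1:**
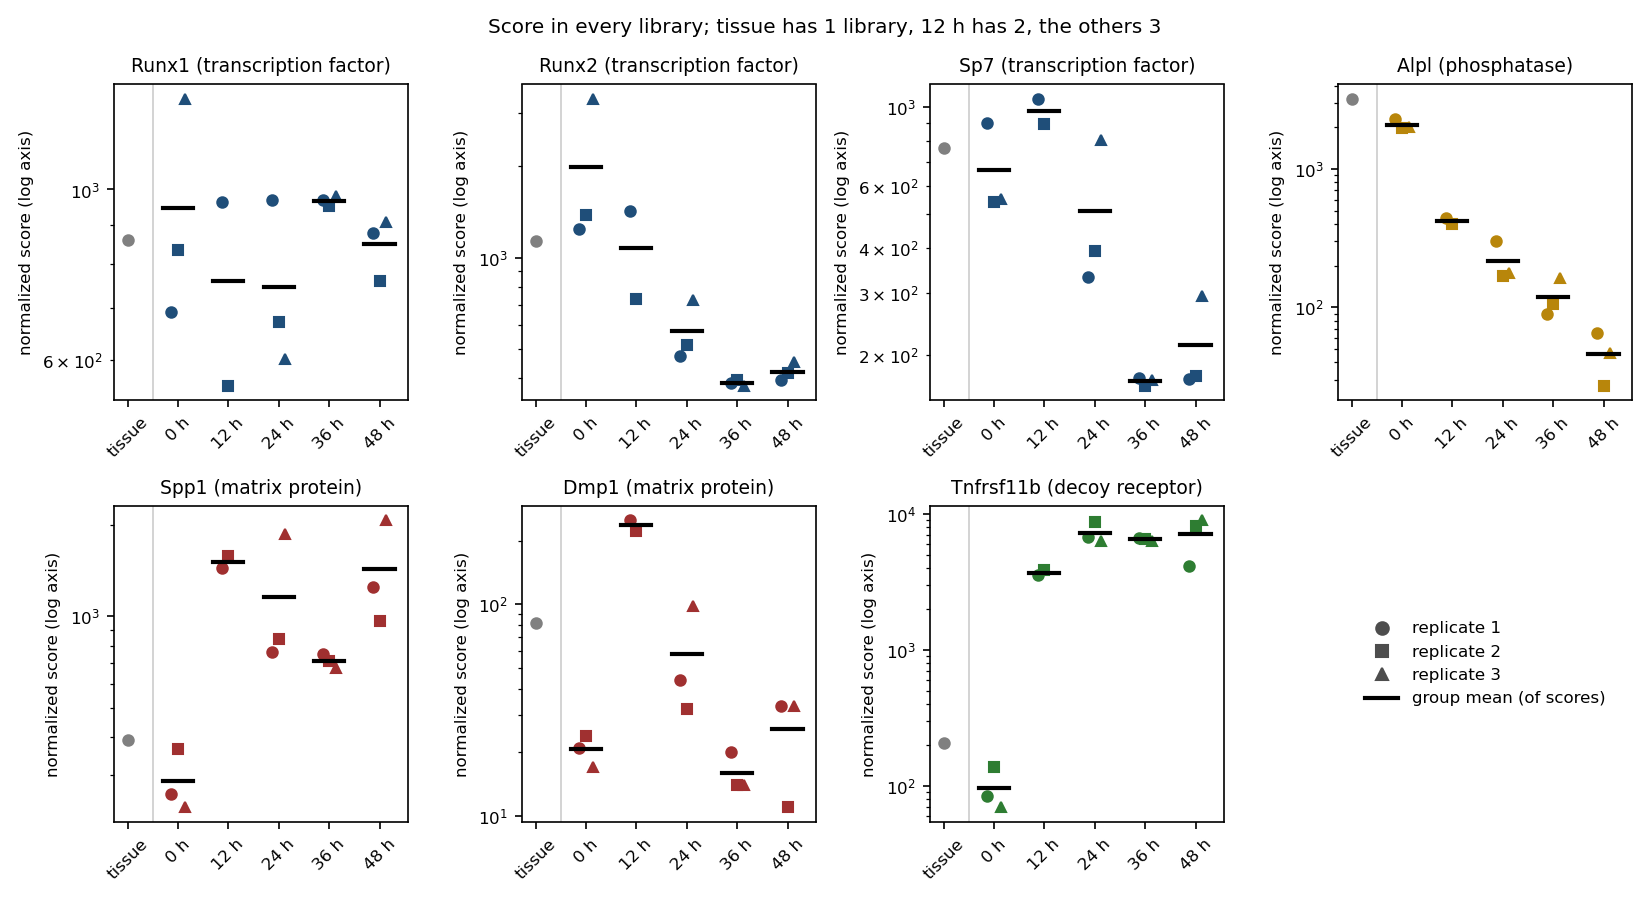
Normalized score (log axis) of the 7 genes in every library of tissue and of mDMCs at 0, 12, 24, 36 and 48 h, with symbols for replicates and bars for group means of the scores. Alpl fell from 1988 or more to 65 or less, Tnfrsf11b rose from 137 or less to 3536 or more, and Dmp1 stood between 222 and 249 at 12 h and at 98 or less in every other library.

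Runx2, the principal regulator of the lineage, declined in culture. Its scores were 1245, 1380 and 3327 at 0 h, 1420 and 730 at 12 h, 474, 517 and 725 at 24 h, 387, 395 and 378 at 36 h, then 394, 418 and 452 at 48 h. From 24 h onward every library lay below every freshly isolated one, while the groups at 0 h and 12 h overlapped. Runx2 fell by 1.67 ± 0.32 (SE) on the log2 scale at 24 h (adjusted p = 0.00053), fell by 2.21 ± 0.32 at 36 h (adjusted p = 4.8e-05) and fell by 2.09 ± 0.32 at 48 h (adjusted p = 7.5e-05). At 12 h the change was -0.81 ± 0.36 and was not called (adjusted p = 0.071). With each library left out in turn it ranged from -1.29 to -0.33. It was called there without 0 h replicate 1 (-1.07, adjusted p = 0.026), without 0 h replicate 2 (-0.999, adjusted p = 0.0498) or without 12 h replicate 1 (-1.29, adjusted p = 0.023), so the time at which the decline passed the test is set by single libraries. Without both 0 h replicate 3, the highest library, and 12 h replicate 1 the value was -0.84 and was called (adjusted p = 0.0070). In the order of means 0 h was followed by 12, 24, 48 and 36 h, and of the neighbours in that order only 12 h and 24 h, and 24 h and 48 h, did not overlap, and neither of these differences was called.

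Sp7, which acts after Runx2, was downregulated at 36 h and 48 h. Its scores were 901, 541 and 550 at 0 h, 1053 and 894 at 12 h, 332, 392 and 805 at 24 h, 173, 164 and 170 at 36 h, then 172, 175 and 293 at 48 h. Both 12 h libraries were near the highest 0 h library, and all libraries at 36 h and 48 h were lower than every earlier one. The log2 change against 0 h was 0.59 ± 0.34 at 12 h (adjusted p = 0.16) and -0.45 ± 0.31 at 24 h (adjusted p = 0.21), neither of them called. Sp7 fell by 1.93 ± 0.31 at 36 h (adjusted p = 9.8e-05) and fell by 1.64 ± 0.31 at 48 h (adjusted p = 0.00036). The step between 24 h and 36 h was called by itself, with a change of -1.48 ± 0.31 (adjusted p = 0.0071). In the order of means, 12 h was followed by 0, 24, 48 and 36 h, and of the neighbours only 24 h and 48 h did not overlap. The 24 h value leaned on replicate 3, without which Sp7 at 24 h was lower than at 0 h by the test (-0.84, adjusted p = 0.012). With each library left out in turn this change ranged from -0.84 to -0.20.

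Runx1, the relative of Runx2, was called in none of the comparisons. Its scores were 692, 834 and 1312 at 0 h, 963 and 555 at 12 h, 969, 673 and 601 at 24 h, 968, 953 and 981 at 36 h, then 878, 760 and 908 at 48 h. Apart from 555 at 12 h and 673 and 601 at 24 h, the cultured libraries lay inside the range of the freshly isolated ones, and all neighbours in the order of means (36, 0, 48, 12 and 24 h) overlapped. The change at 48 h was -0.11 ± 0.24, with a 95% interval from -0.64 to 0.42 and an adjusted p of 0.71, so a change of the size seen in Runx2 lay outside the interval. The ratio of the Runx2 score to the Runx1 score, which is read here only as a change between libraries, ranged from 1.65 to 2.54 at 0 h, from 1.32 to 1.47 at 12 h, from 0.489 to 1.21 at 24 h, from 0.385 to 0.414 at 36 h and from 0.449 to 0.55 at 48 h. It was below the freshly isolated range in every cultured library. In the uncultured tissue it was 1.32, also below that range and inside the range of 12 h.

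Alpl, the phosphatase needed for mineral, showed the deepest fall of the 7 genes. Its scores were 2288, 1988 and 2008 at 0 h, 442 and 401 at 12 h, 302, 169 and 176 at 24 h, 89, 105 and 163 at 36 h, then 65, 27 and 47 at 48 h. No group overlapped the next, so that each time point lay below the one before it in all of its libraries. Alpl fell by 2.31 ± 0.34 on the log2 scale at 12 h (adjusted p = 9.3e-05), fell by 3.32 ± 0.31 at 24 h (adjusted p = 9.2e-07), fell by 4.17 ± 0.31 at 36 h (adjusted p = 1e-07) and fell by 5.55 ± 0.31 at 48 h (adjusted p = 7.3e-09). The last of these is a fold of 46.9. The single steps after 12 h were not called, with -1.01 ± 0.34 from 12 h to 24 h (adjusted p = 0.090), -0.85 ± 0.31 from 24 h to 36 h (adjusted p = 0.070) and -1.38 ± 0.31 from 36 h to 48 h (adjusted p = 0.12). Over longer intervals the change was called, since Alpl fell by 1.86 ± 0.34 from 12 h to 36 h (adjusted p = 0.0013) and fell by 2.23 ± 0.31 from 24 h to 48 h (adjusted p = 0.00042).

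The matrix protein Spp1 moved the other way. Its scores were 261, 366 and 235 at 0 h, 1441 and 1581 at 12 h, 763, 843 and 1863 at 24 h, 752, 715 and 676 at 36 h, then 1253, 964 and 2071 at 48 h. Every cultured library was above every freshly isolated one, and replicate 3 was the highest at both 24 h and 48 h. Spp1 rose by 2.42 ± 0.36 at 12 h (adjusted p = 8.7e-05), 1.91 ± 0.32 at 24 h (adjusted p = 0.00016), 1.34 ± 0.32 at 36 h (adjusted p = 0.0023) and 2.26 ± 0.32 at 48 h (adjusted p = 3.3e-05). The dip at 36 h was called against 12 h, with -1.08 ± 0.36 (adjusted p = 0.031), but the call was lost without either 12 h library or any of the 36 h libraries (adjusted p from 0.058 to 0.12). The change from 36 h to 48 h, 0.93 ± 0.32, was not called (adjusted p = 0.24), although the libraries did not overlap. The groups with the highest means, 12 h, 48 h and 24 h in that order, overlapped.

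Dmp1, a matrix protein of odontoblasts and osteocytes, was the only member with a transient peak, defined as called higher than 0 h at 12 h or 24 h and called lower at 48 h than at that time. Its scores were low, at 21, 24 and 17 at 0 h, 249 and 222 at 12 h, 44, 32 and 98 at 24 h, 20, 14 and 14 at 36 h, then 33, 11 and 33 at 48 h. Both 12 h libraries exceeded every other library, the tissue included. Dmp1 rose by 3.46 ± 0.50 at 12 h (adjusted p = 7.2e-05), and fell by 3.30 ± 0.50 from 12 h to 48 h (adjusted p = 0.00027). At 36 h and 48 h the changes against 0 h were -0.36 ± 0.45 (adjusted p = 0.49) and 0.16 ± 0.45 (adjusted p = 0.76). The same peak at 12 h was met by 5.52% of all transcripts, and a peak at 24 h by 3.49% and by none of the 7 genes. After 12 h and 24 h in the order of means came 48, 0 and 36 h, whose libraries overlapped. The fall from 12 h to 48 h stayed called whichever single library was left out (from -3.55 to -2.80, highest adjusted p = 0.0050), whereas each call that involves 24 h was lost without some libraries. The call at 24 h against 0 h (1.30 ± 0.45, adjusted p = 0.021) was lost without 24 h replicate 3 (0.84, adjusted p = 0.11) or 0 h replicate 3 (1.17, adjusted p = 0.062). That from 12 h to 24 h (-2.16 ± 0.50, adjusted p = 0.020) was lost without 12 h replicate 1 (-2.08, adjusted p = 0.16), 12 h replicate 2 (-2.24, adjusted p = 0.055) or 24 h replicate 2 (-1.82, adjusted p = 0.087), and that from 24 h to 36 h (-1.65 ± 0.45, adjusted p = 0.023) without 24 h replicate 3 (-1.20, adjusted p = 0.10), 36 h replicate 2 (-1.57, adjusted p = 0.077) or 36 h replicate 3 (-1.57, adjusted p = 0.063).

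Tnfrsf11b, the decoy receptor, rose the most. Its scores were 84, 137 and 69 at 0 h, 3536 and 3840 at 12 h, 6703, 8750 and 6333 at 24 h, 6633, 6497 and 6333 at 36 h, then 4115, 8107 and 8959 at 48 h. The lowest cultured library was far above the highest freshly isolated one, and from 24 h onward the groups overlapped each other. Tnfrsf11b rose by 5.30 ± 0.31 on the log2 scale at 12 h (adjusted p = 3.4e-08), by 6.26 ± 0.28 at 24 h (adjusted p = 1.2e-09), by 6.11 ± 0.28 at 36 h (adjusted p = 1.3e-09) and by 6.16 ± 0.28 at 48 h (adjusted p = 1.1e-09), a fold of 71.4 at the last. From 12 h to 48 h it rose by a further 0.86 ± 0.31 (adjusted p = 0.040), a call that was lost without any single library of 12 h or 36 h, or without 48 h replicate 2 or 3 (adjusted p from 0.051 to 0.17).

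**Figure D2:**
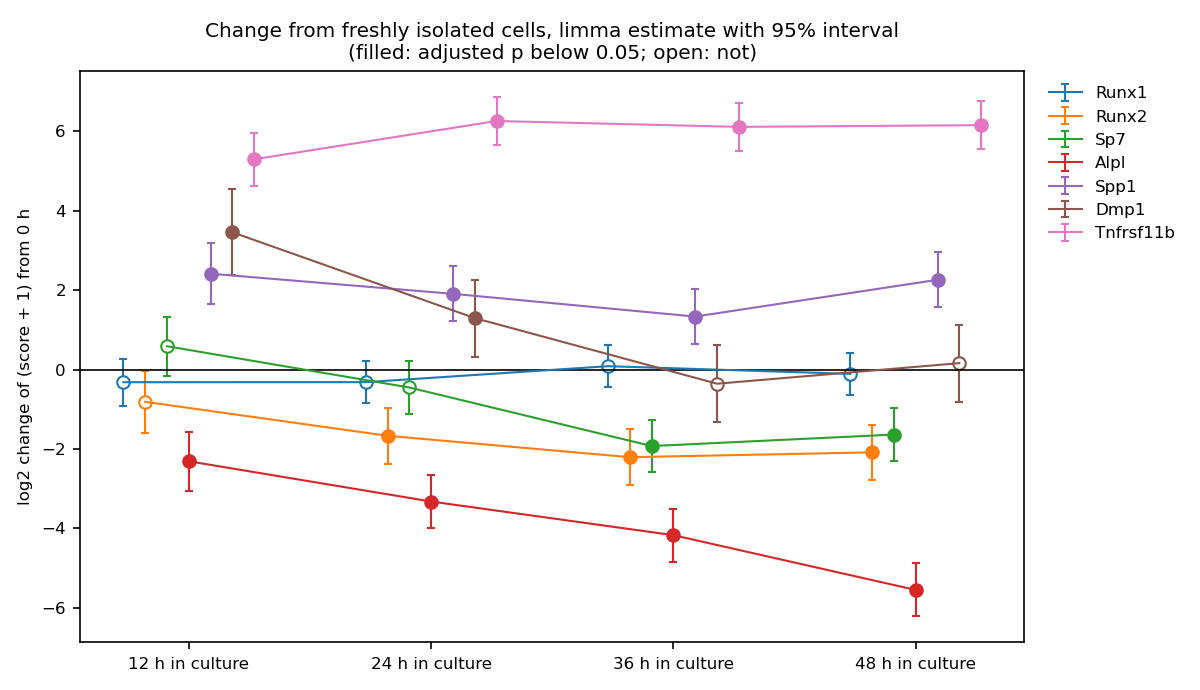
Log2 change of (score + 1) from freshly isolated mDMCs at 12, 24, 36 and 48 h for the 7 genes (limma estimates, bars are 95% intervals, filled points have an adjusted p below 0.05). Tnfrsf11b ends at 6.16 and Spp1 at 2.26 above 0 h, Alpl at -5.55, Runx2 at -2.09 and Sp7 at -1.64, and Dmp1 is near 0 again at 36 h and 48 h.

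Among cultured mDMCs few members were called from one time point to the next. A missing call does not show a constant level, since Alpl was called in none of these steps although its groups never overlapped. From 12 h to 24 h only Dmp1 was called, as lower (3.67% of all transcripts were lower and 4.59% higher). By an unadjusted p below 0.05 with a fold above 2, Sp7, Alpl and Dmp1 were lower in this step (1.89% of all lower and 1.8% higher). From 24 h to 36 h Sp7 and Dmp1 were lower (9.64% lower and 10% higher). Between 36 h and 48 h limma called none of the 7, and it called 0.0248% of all transcripts lower and 0.0% higher, although 2 members, Alpl and Spp1, had an unadjusted p below 0.05 (13.4% of all), and Alpl alone also had a fold above 2 (0.96% of all lower and 0.397% higher). Over the longer interval from 12 h to 36 h, Runx2, Sp7, Alpl, Spp1 and Dmp1 were lower and none was higher (19.1% lower and 19.3% higher). From 12 h to 48 h, Runx2, Sp7, Alpl and Dmp1 were lower and Tnfrsf11b was higher (21% and 21.2%). From 24 h to 48 h, Sp7 with -1.19 ± 0.31 (adjusted p = 0.015) and Alpl were lower (11.7% lower and 12.2% higher). The calls of Runx2 against 12 h rested on 12 h replicate 1, since without it the adjusted p was 0.13 at 36 h and 0.18 at 48 h. That of Sp7 from 24 h to 48 h was lost without 48 h replicate 1 (adjusted p = 0.060) or 2 (adjusted p = 0.053).

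The intact dental mesenchyme served as the uncultured reference, and with 1 library its values can only be set beside the range of the freshly isolated mDMCs. Its scores were 860 for Runx1, 1133 for Runx2, 765 for Sp7, 3216 for Alpl, 392 for Spp1, 82 for Dmp1 and 207 for Tnfrsf11b. Runx1 and Sp7 lay inside the range of 0 h, Runx2 lay below it at 0.571 of the 0 h mean, and the others lay above it. The 0 h mean of Runx2 was raised by replicate 3 (3327), and the lowest 0 h score was 1245, near the 1133 of the tissue. Above all 0 h libraries stood 29.7% of all transcripts and below them 32%. Alpl was 1.54 times and Spp1 1.36 times the 0 h mean. The widest gaps were those of Dmp1, at 3.97 times the 0 h mean, and of Tnfrsf11b, at 2.14 times, whereas 2.34% of all transcripts stood at more than 2 times that mean. None of the 7 genes, and 1.68% of all transcripts, stood at less than 0.5 of it. For Dmp1 the tissue score of 82 lay between the lowest 24 h library, 32, and the highest, 98, and for Tnfrsf11b it lay between 0 h and 12 h. For Alpl it lay on the far side of 0 h from the cultured cells. Marker sums of the tissue library also lay outside those of 0 h. They were higher for macrophages, at 2265 over 6 markers against 988 to 1284, for endothelium, at 11143 over 6 markers against 7975 to 9452, and for cartilage, at 2909 over 3 markers against 1992 to 2701. The cartilage sum was mostly Col2a1, at 2711 against 1873 to 2588. Sox9, at 187, lay inside its range of 110 to 302, and Acan was low, at 11 against 3 to 7. The sum was lower for the dental mesenchyme itself, at 30473 over 6 markers against 35144 to 39808. The tissue lay inside the range of 0 h for dental epithelium (4552 over 5 markers) and for the red cell sum, in which members parted. Hbb-y, an embryonic globin, scored 6425 against 18558 to 40680 at 0 h, and Alas2, an enzyme of heme synthesis, scored 1084 against 595 to 929. The part of these differences in the scores was not tested.

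**Figure D3:**
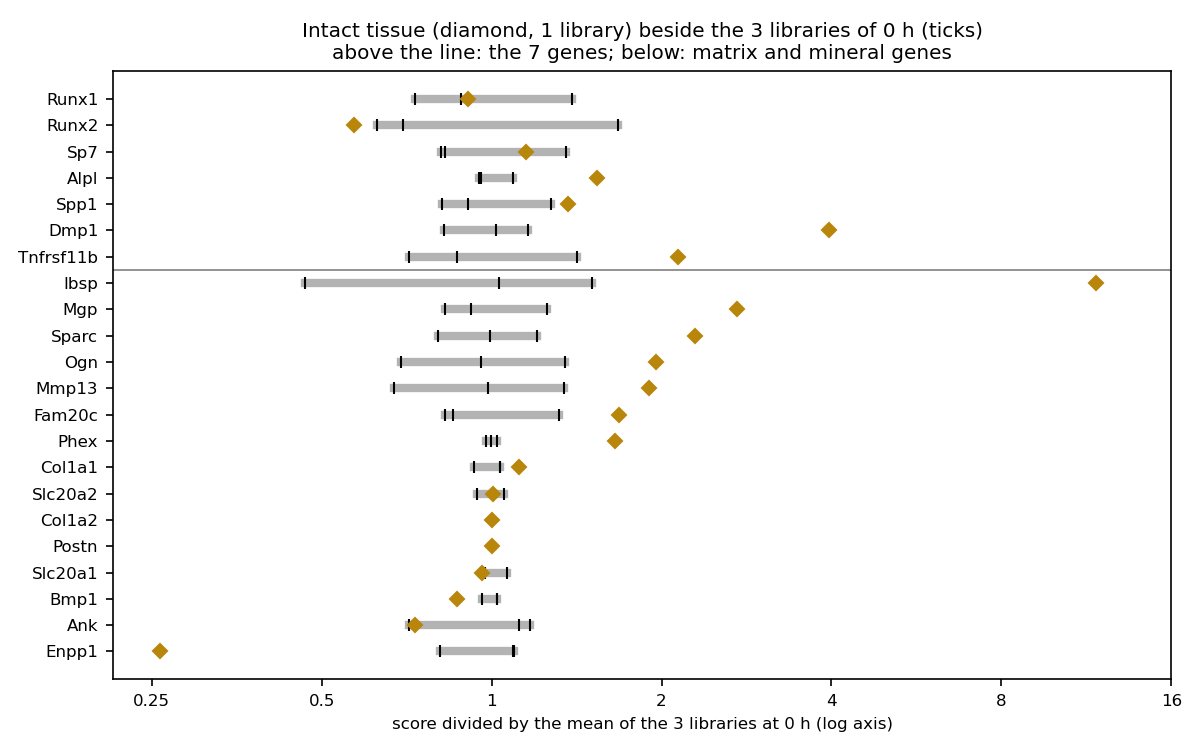
Score in intact tissue (diamonds, 1 library) and in the 3 freshly isolated libraries (ticks on a grey bar from lowest to highest), each divided by the mean of 0 h (log axis), for the 7 genes and for matrix and mineral genes. Dmp1 at 3.97 and Ibsp at 11.8 stand farthest to the right, and Enpp1 at 0.258 farthest to the left.

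The matrix genes around Spp1 and Dmp1 were followed with a list of 20 genes, of which 15 had a value. Bglap, Bglap2, Mepe, Dspp and Phospho1 were not analysed here, so the late markers osteocalcin and dentin sialophosphoprotein are missing from this account. At 48 h, 5 of the 15 were higher than at 0 h, 6 were lower and 4 were not called, with a median change of -0.43 where that of all transcripts was 0.03. Of all transcripts 37.1% were higher and 34.0% lower in this comparison, so the counts of this list stand near the background. Fam20c, the kinase that phosphorylates secreted proteins such as Spp1 and Dmp1, rose by 2.96 ± 0.17 (adjusted p = 9.6e-09). The collagenase Mmp13 rose by 2.80 ± 0.25 (adjusted p = 5.8e-07), and the phosphate carrier Slc20a1 by 1.83 ± 0.12 (adjusted p = 3.5e-08). Enpp1, which makes the pyrophosphate that Alpl splits, fell as Alpl did, from 1537, 2077 and 2069 at 0 h to 250 and 210 at 12 h and 69, 50 and 83 at 48 h. At 48 h Enpp1 had a change of -4.81 ± 0.34 (adjusted p = 5.9e-08), beside the -5.55 of Alpl. Ibsp (bone sialoprotein), a relative of Spp1 and Dmp1 in the matrix, fell by 2.52 ± 0.52 (adjusted p = 0.00073), opposite to Spp1, and Phex, which with Dmp1 takes part in phosphate control, fell by 2.48 ± 0.28 (adjusted p = 5.0e-06). In the tissue Ibsp had a score of 16538 against 657 to 2114 at 0 h.

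Of 18 partners of Runx factors and other transcription factors of the lineage, 17 had a value (Runx3 was not analysed here). At 48 h, 2 were higher, 12 lower and 3 not called, beside 37.1% of all transcripts higher and 34.0% lower, with a median change of -0.75. Cbfb, the partner with which Runx factors bind DNA, fell by 0.99 ± 0.13 at 48 h (adjusted p = 2.1e-05), with Runx2 and without a called change in Runx1. Among those that fell at 48 h were the homeobox factor Dlx3 (-4.06 ± 0.61, adjusted p = 6.0e-05), Zfp521 (-1.63 ± 0.15, adjusted p = 7.6e-07), which restrains Runx2, and Twist2 (-1.59 ± 0.15, adjusted p = 6.5e-07), a helix-loop-helix factor that also restrains Runx2. The scores of Dlx3 were low, at 116, 81 and 83 at 0 h and 4, 4 and 6 at 48 h, so the size of its change is uncertain. Atf4, a leucine zipper factor of osteoblasts and of the stress response, rose by 1.16 ± 0.13 (adjusted p = 5.2e-06). Hdac7, a deacetylase that represses Runx2, rose by 0.56 ± 0.15 (adjusted p = 0.0049). Dlx5, which acts on Runx2 and Sp7, scored 52, 31 and 91 at 0 h and 240 and 78 at 12 h, so that 12 h replicate 2 lay inside the range of 0 h. Its change of 1.36 ± 0.55 at 12 h (adjusted p = 0.048) lost its call when any one of 11 of the 14 libraries was left out, with the lowest value, 0.55, without 12 h replicate 1 (adjusted p = 0.48). At 48 h the change of Dlx5 was 0.26 ± 0.49 (adjusted p = 0.65). Cbfb and Dlx5 were chosen after their values were seen.

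**Figure D4:**
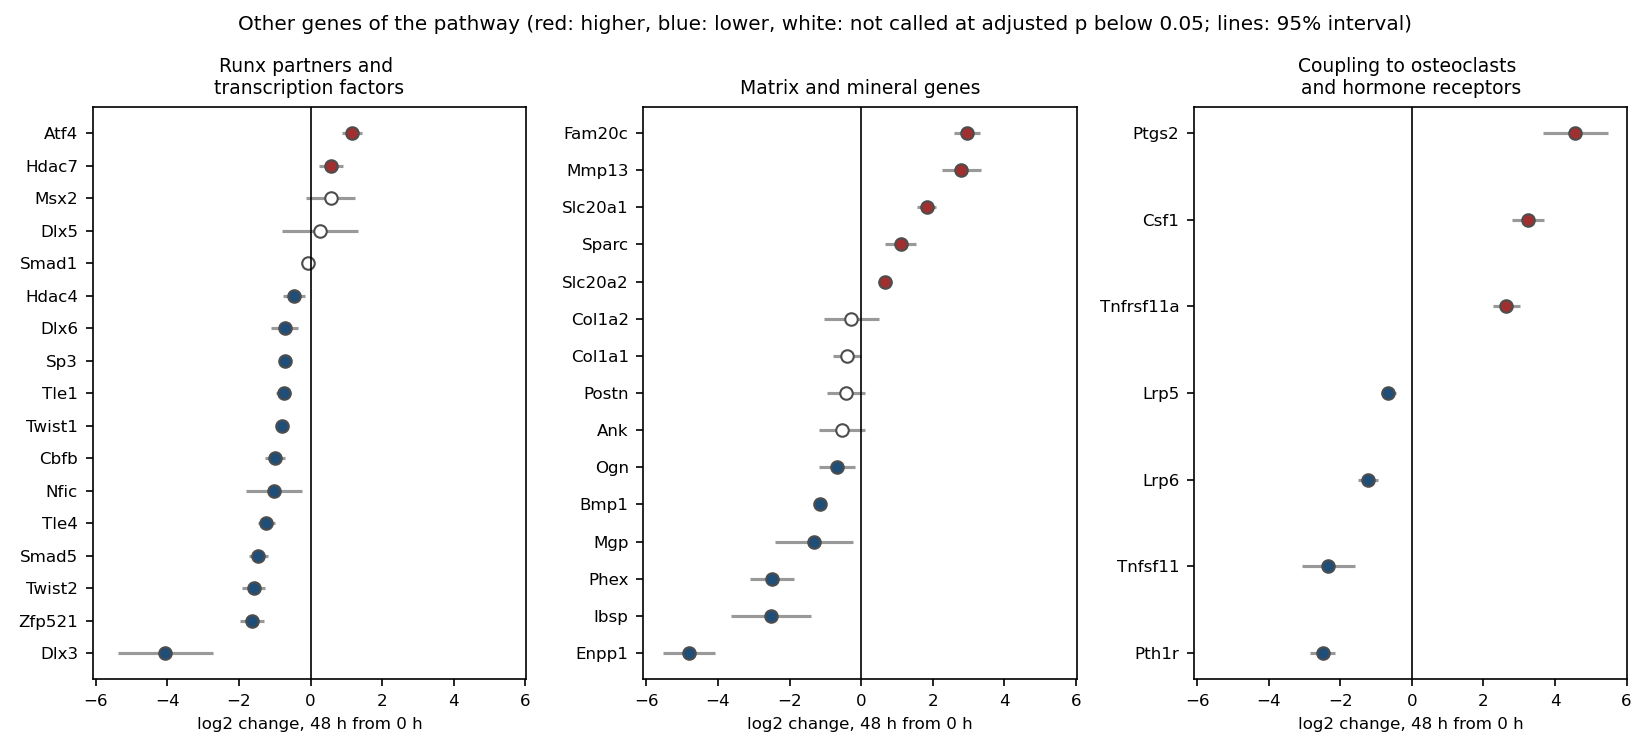
Log2 change of (score + 1) at 48 h from 0 h for the other genes of the pathway in 3 lists (red higher, blue lower, white not called at an adjusted p below 0.05, lines are 95% intervals). Of the transcription factors 12 of 17 are lower, the matrix and mineral genes divide into 5 higher and 6 lower of 15, and the coupling genes into 3 higher and 4 lower of 7, where 37.1% of all transcripts were higher and 34.0% lower.

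The signal that Tnfrsf11b intercepts was read from a list of 12 genes for coupling to osteoclasts and for hormone receptors, of which 7 had a value (Il6, Ptger4, Vdr, Sost and Tnfsf10 were not analysed here). At 48 h, 3 were higher and 4 lower, with a median change of -0.65, where 37.1% of all transcripts were higher and 34.0% lower, so that the counts are no result about the list. The ligand Tnfsf11 went opposite to its decoy, with scores of 200, 439 and 450 at 0 h, 101 and 144 at 12 h, 90, 163 and 129 at 24 h, 50, 41 and 42 at 36 h, then 45, 92 and 72 at 48 h. All of its cultured libraries lay below all freshly isolated ones, and it fell by 2.33 ± 0.34 at 48 h (adjusted p = 4.6e-05). The ratio of the Tnfrsf11b score to the Tnfsf11 score, read only as a change between libraries, ranged from 0.153 to 0.42 at 0 h, from 26.7 to 35.0 at 12 h, from 49.1 to 74.5 at 24 h, from 132.66 to 158 at 36 h and from 88.1 to 124 at 48 h. In the tissue, where Tnfsf11 scored 834, it was 0.248, inside the range of 0 h. Further genes of the signal rose at 48 h. Csf1, the growth factor of osteoclast precursors, rose by 3.25 ± 0.21 (adjusted p = 2.7e-08), the receptor Tnfrsf11a by 2.65 ± 0.17 (adjusted p = 2.9e-08) and Ptgs2, the inducible cyclooxygenase, by 4.56 ± 0.42 (adjusted p = 6.8e-07). Of the hormone receptors and Wnt coreceptors, Pth1r fell by 2.49 ± 0.16 (adjusted p = 3.0e-08) and Lrp6 fell by 1.22 ± 0.13 (adjusted p = 2.8e-06).

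**Figure D5:**
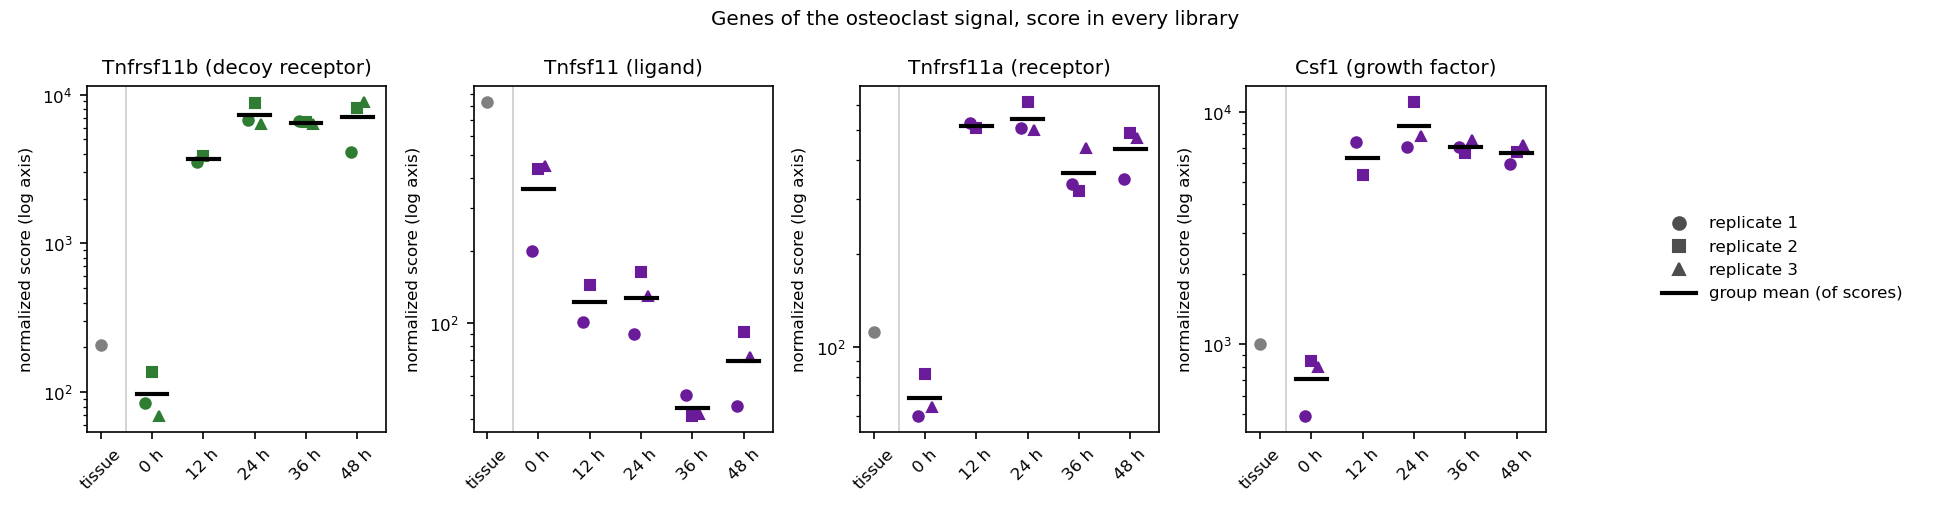
Normalized score (log axes, each panel on its own scale) of Tnfrsf11b, Tnfsf11, Tnfrsf11a and Csf1 in every library, with symbols for replicates and bars for group means. Tnfsf11 falls from 200 to 450 at 0 h to 45 to 92 at 48 h, while Tnfrsf11b goes from 69 to 137 at 0 h to 4115 to 8959 at 48 h.

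Markers of other cells also moved between freshly isolated and cultured mDMCs. Over 6 of 7 red cell markers the summed score ranged from 97654 to 150514 at 0 h and from 51 to 757 at 24 h and later, and was 135500 in the tissue. Over 6 of 6 endothelial markers it ranged from 7975 to 9452 at 0 h and from 396 to 851 in culture. Over 6 of 10 macrophage markers it ranged from 988 to 1284 at 0 h and from 517 to 1269 in culture, a sum in which members moved apart. Csf1r, the receptor for Csf1, went from 413, 474 and 397 at 0 h to 56, 102 and 72 at 48 h. Lyz2 (lysozyme) went from 113, 192 and 126 at 0 h to 409 and 514 at 12 h and had 449, 114 and 168 at 48 h. Over 5 of 6 dental epithelium markers it was 12742, 1393 and 1708 at 0 h and 2218 and 2576 at 12 h. It was 928 to 1798 at 24 h, 81 to 562 at 36 h and 327 to 1139 at 48 h. Over 3 of 5 cartilage markers it ranged from 1992 to 2701 at 0 h and from 1614 to 4164 in culture, and this sum joins markers that moved apart. Acan (aggrecan) went from 3, 7 and 7 at 0 h to between 572 and 1898 in culture and rose by 7.13 ± 0.31 at 48 h (adjusted p = 8.5e-10). Col2a1, the collagen of cartilage, had 2588, 1873 and 2096 at 0 h and 1718, 1002 and 947 at 48 h, and Sox9, its regulator, had 110, 112 and 302 at 0 h and 56, 60 and 95 at 48 h. The dental mesenchyme markers themselves, 6 of 6, ranged from 35144 to 39808 at 0 h and from 11586 to 18169 in culture, and all 6 were called lower at 48 h, as were 34.0% of all transcripts. Among them Pax9 went from between 3850 and 5959 at 0 h to between 619 and 1056 at 48 h, and Msx1 from between 5030 and 5473 to between 3238 and 3770. None of the 6 reached 0 in any library. Of these markers, Cdh5 and Tie1 of the endothelium, Hbb-bt of red cells and Krt5 of the epithelium reached 0 in 1 or 2 cultured libraries and none did at 0 h. The part of these shifts in the changes of the 7 genes was not tested.

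The transcripts whose log2 scores followed each member most closely over the 14 mDMC libraries were ranked by Pearson's r, as a description over libraries that share time points. For Tnfrsf11b they were Tpm2 and Sytl5 (both r = 0.996) and Ehbp1l1 (r = 0.995), and for Runx2 they were Rybp (r = 0.992), Setd2 (r = 0.990) and Adnp (r = 0.989). For Alpl they were Lgi2 (r = 0.985), Brf1 (r = 0.984) and Chst3 (r = 0.981). For Dmp1, Cgas followed most closely (r = 0.975), with mean scores of 86.0, 181.5, 110.3, 73.7 and 79.0 from 0 h to 48 h, ahead of Vav3 (r = 0.930) and Man2a1 (r = 0.926). Spp1 was followed by Srxn1 and Cfap69 (both r = 0.959) and Ifi202b (r = 0.954). Sp7 was followed by Kctd12 and Sms (both r = 0.951) and Samd1 (r = 0.948). For Runx1, which varied little with time, the highest values were lower, with Alkbh5 (r = 0.849), Zbtb20 (r = 0.841) and Samd8 (r = 0.839).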

How the data were processed

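RNA-seq was analysed in 15 libraries of mDMCs and dental mesenchyme, grouped by the time points in the sample labels. The authors isolated RNA with RNeasy kits, sequenced TruSeq libraries on an Illumina HiSeq instrument, trimmed adaptors, aligned reads with bowtie to the mouse transcriptome (mm10, Ensembl) and estimated expression with RSEM (version 1.1.21 per the labels' processing notes; the paper names another version). The authors deposited 1 table of whole-number scores for 12089 transcripts. It is named as CPM, but totals from 21357605 to 21365980 exceed that unit, and 71.9% of ranks carry an identical score throughout, so the values had been brought to a common distribution. The depth is unknown, no counting interval can be given, and a change in total RNA cannot be seen.

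Transcripts were matched to genes with GENCODE M21 (GRCm38), which named 11973 of them. Scores were taken as log2(score + 1). The 14 mDMC libraries entered a limma fit (3.58.1, in R 4.3.3) that gave each time point its own mean and moderated the variances along the mean intensity. It covered the 12079 transcripts that reached 1 ppm of a library's total in 2 or more libraries. All 7 genes passed this filter. P-values are two-sided, with Benjamini-Hochberg adjustment over all transcripts tested. The design had allowed for counts. Since the table holds none, the test for normalized values was used. The tissue was described without a test. Promoters were taken from RefSeq. Summaries and plots used Python 3.11.15. The limma step was tested on simulated scores of 12079 transcripts for 48 h against 0 h, where it called 78 of 100 with a 2-fold change, 98 of 100 with a 4-fold change and 12 of 11879 without change.

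The members, the gene lists and the tests were chosen with earlier results of these data known. The genes named are the 7 members, the 3 transcripts most like each of them, and from each list the 3 called higher and the 3 called lower at 48 h with the largest change, beside those marked in the text as chosen later. Marker genes named singly, and matrix genes named only for the tissue, fell under no such rule and were picked with their values seen. A further gene of the transcription factor list is not reported here and was left out of its counts. The comparison of 36 h with 12 h was added after the data were seen. Replicate numbers were checked as pairs by correlating deviations from the group means. Every same-numbered pair exceeded 0.1 between 24 h and 36 h (0.165, 0.145 and 0.126) and between 24 h and 48 h (0.298, 0.200 and 0.315), from the data alone since the labels name no shared batch, and in no other pair of time points. The alternatives were pseudocounts of 0.1 and 10, no filter, 1 ppm in all 14 libraries, a fit restricted to both compared groups, a replicate block, no intensity trend, an unadjusted p below 0.05 with a fold above 2, and each library left out in turn. Leaving out 0 h replicate 3 with 12 h replicate 1, and averaging 36 h replicates 1 and 2, were added after seeing the data.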

Additional observations from a re-analysis of the deposited data

How the results depend on the processing

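The counts of members called against 0 h stayed within 1.5 times under every alternative run. Between cultured time points they moved more. The count from 12 h to 24 h, 1 as reported, was 0 with 1 ppm required in all 14 libraries (a filter that leaves out Dmp1), 0 with only the compared time points and 0 without both 0 h replicate 3 and 12 h replicate 1, 2 with the replicate block (which added Sp7, -1.17, adjusted p = 0.0499) and 3 with an unadjusted p below 0.05 and a fold above 2, and from 0 to 2 with each library left out. The count from 24 h to 36 h, 2, was 1 with the filter over all 14 libraries and 1 with 36 h replicates 1 and 2 averaged, and from 1 to 3 with each library left out. From 36 h to 48 h it was 1 in place of 0 by the unadjusted rule, and from 0 to 1 with each library left out. From 24 h to 48 h it was 1 in place of 2 with only the compared time points, and from 1 to 2 with each library left out. With each library left out it was from 3 to 5 from 12 h to 48 h and from 3 to 6 from 12 h to 36 h, where 12 h replicate 1 gave the 3. The replicate block changed no other count by over 1.5 times.

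For 44 results on single members, 995 of 1048 values under the alternatives kept direction and call, 36 lost the call, 10 gained it and 7 reversed. Many of these values kept their direction by construction, since leaving out a library of neither compared group does not alter the log2 change. The reversed values were of changes near 0 that were not called. Over the left-out libraries Runx1 ranged from -0.71 to 0.0792 at 12 h, from -0.11 to 0.35 at 36 h and from -0.31 to 0.16 at 48 h (0.16 also without 0 h replicate 3 and 12 h replicate 1), Dmp1 from -0.0882 to 0.66 at 48 h, all against 0 h, and Spp1 from -0.46 to 0.0939 between 12 h and 48 h. The cause of these shifts was not tested beyond the construction of each alternative. A lone 12 h library is assumed to vary like the other groups.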

Other observations

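In the intact dental mesenchyme 8 of the 15 matrix and mineral genes stood above all freshly isolated libraries, 3 below and 4 inside their range or equal to it, where 29.7% of all transcripts stood above and 32% below. Of those above, Ibsp, which encodes bone sialoprotein, with a score of 16538, was at 11.8 times the 0 h mean, Mgp, an inhibitor of mineral in soft tissue, at 2.72 times with a score of 210, and Sparc (osteonectin) at 2.29 times with a score of 28882. Ogn, a small proteoglycan, was at 1.95 times and Mmp13 at 1.90 times. Those below were Enpp1 with 489 against 1537 to 2077 at 0 h, the protease Bmp1 with 3971 against 4384 to 4660, and Slc20a1 with 1503 against 1504 to 1662. Col1a2 and Postn held the same score, 127101 and 70714, in the tissue and in each library of 0 h, so a difference between them cannot be seen on this scale. With 1 tissue library none of these gaps has a replicate check.

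Spp1 and Ibsp, secreted proteins of the same family, parted in culture. The ratio of the Spp1 score to the Ibsp score, read as a change between libraries only, ranged from 0.123 to 0.358 at 0 h, from 1.58 to 2.06 at 12 h, from 1.97 to 3.82 at 24 h, from 4.17 to 4.74 at 36 h and from 2.58 to 11.1 at 48 h, and was 0.0237 in the tissue. Every cultured library was above every freshly isolated one, and the 48 h libraries spread widely. At 48 h Ibsp scored 485, 87 and 247, all below the 2114, 1448 and 657 of 0 h.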
